A study of Caenorhabditis elegans with 2 samples.

Results

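The 8 genes described here, lin-54, lin-9, lin-53, lin-52, lin-37, lin-35, efl-1 and dpl-1, encode subunits of the DREAM complex of Caenorhabditis elegans, out of 19973 nuclear protein-coding genes. They were chosen by name, after a strong peak had been seen at lin-54 in these same data, so the peaks at them are a description and no test was made on them. Peaks came from chromatin immunoprecipitation sequencing (ChIP-seq) of whole worms of strain OP810, which carries an unc-119(tm4063) mutation and the transgene wgIs810. The transgene holds C06A6.2 fused to TY1, EGFP and 3xFLAG, beside a copy of unc-119(+) that rescues the mutation. Worms had been synchronised as starved L1 larvae and were young adults aged 67 hours, and the tagged protein was precipitated with an antibody to GFP. The single group had 2 biological replicates, there was no second genotype, and no untagged worms or input libraries were analysed here, so a peak cannot be told apart from signal that an untagged strain would also give. Whole worms pool all tissues, and peak lists hold no marker by which the cells of origin could be checked.

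In its textbook form the DREAM complex joins a core of MuvB proteins to a pocket protein of the retinoblastoma family and to an E2F-DP heterodimer. It sits at promoters and represses cell cycle genes, and in the worm soma also genes of the germline. In C. elegans its subunits were found as synthetic multivulva (synMuv) class B genes, which act redundantly with class A genes to restrain vulval fate. LIN-54 is the MuvB subunit that binds DNA, at the CHR element, and LIN-35 is the pocket protein.

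Of the 8 genes, 5 had a peak at a start site in the main list. This is the conservative list of 1346 peaks made from both replicates and thresholded on the irreproducible discovery rate (IDR), which measures how repeatable a peak's rank is. A gene counts as having a peak when the summit lies within 500 bp of an annotated transcription start site (TSS) of any of its coding transcripts. The 5 genes were lin-54, lin-9, lin-53, lin-35 and efl-1, while lin-52, lin-37 and dpl-1 had none. Among all protein-coding genes the share was 3.27% (95% Wilson interval 3.03 to 3.53, counting error only). Within 2000 bp the count was again 5 of 8, and the share of all genes 6.45%. The members were picked after lin-54 was known, so its own peak adds nothing to the count. Of the other 7 genes, 4 had a peak. They too were chosen with earlier results of these data known, so that count is also only a description.

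In the other thresholded lists 3 of the 8 genes had a peak, and these were lin-54, lin-9 and lin-53 each time. The shares of all genes there were 2.02% in replicate 1, 2.32% in replicate 2 and 3.33% in the optimal list, which is the second joint list of 1338 peaks. Widening the window to 2000 bp left the count at 3, against 4.14%, 4.53% and 6.46% of all genes. The peaks of lin-35 and efl-1 therefore stood in the conservative list alone.

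The ranked lists, which hold peaks before the threshold, had a summit within 500 bp of 6 of the 8 genes, the same 6 in all 4 lists. The added gene was lin-52. Such summits are common: the share of all genes was 33.6% in the joint ranked list of both replicates, 31% in the other joint ranked list, 35.3% in replicate 1 and 33.1% in replicate 2. Within 2000 bp the counts were 6, 7, 6 and 7 of 8, against 64.6%, 61.6%, 70.1% and 66.9% of all genes, so at that distance they lie near or little above the background.

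**Figure D1:**
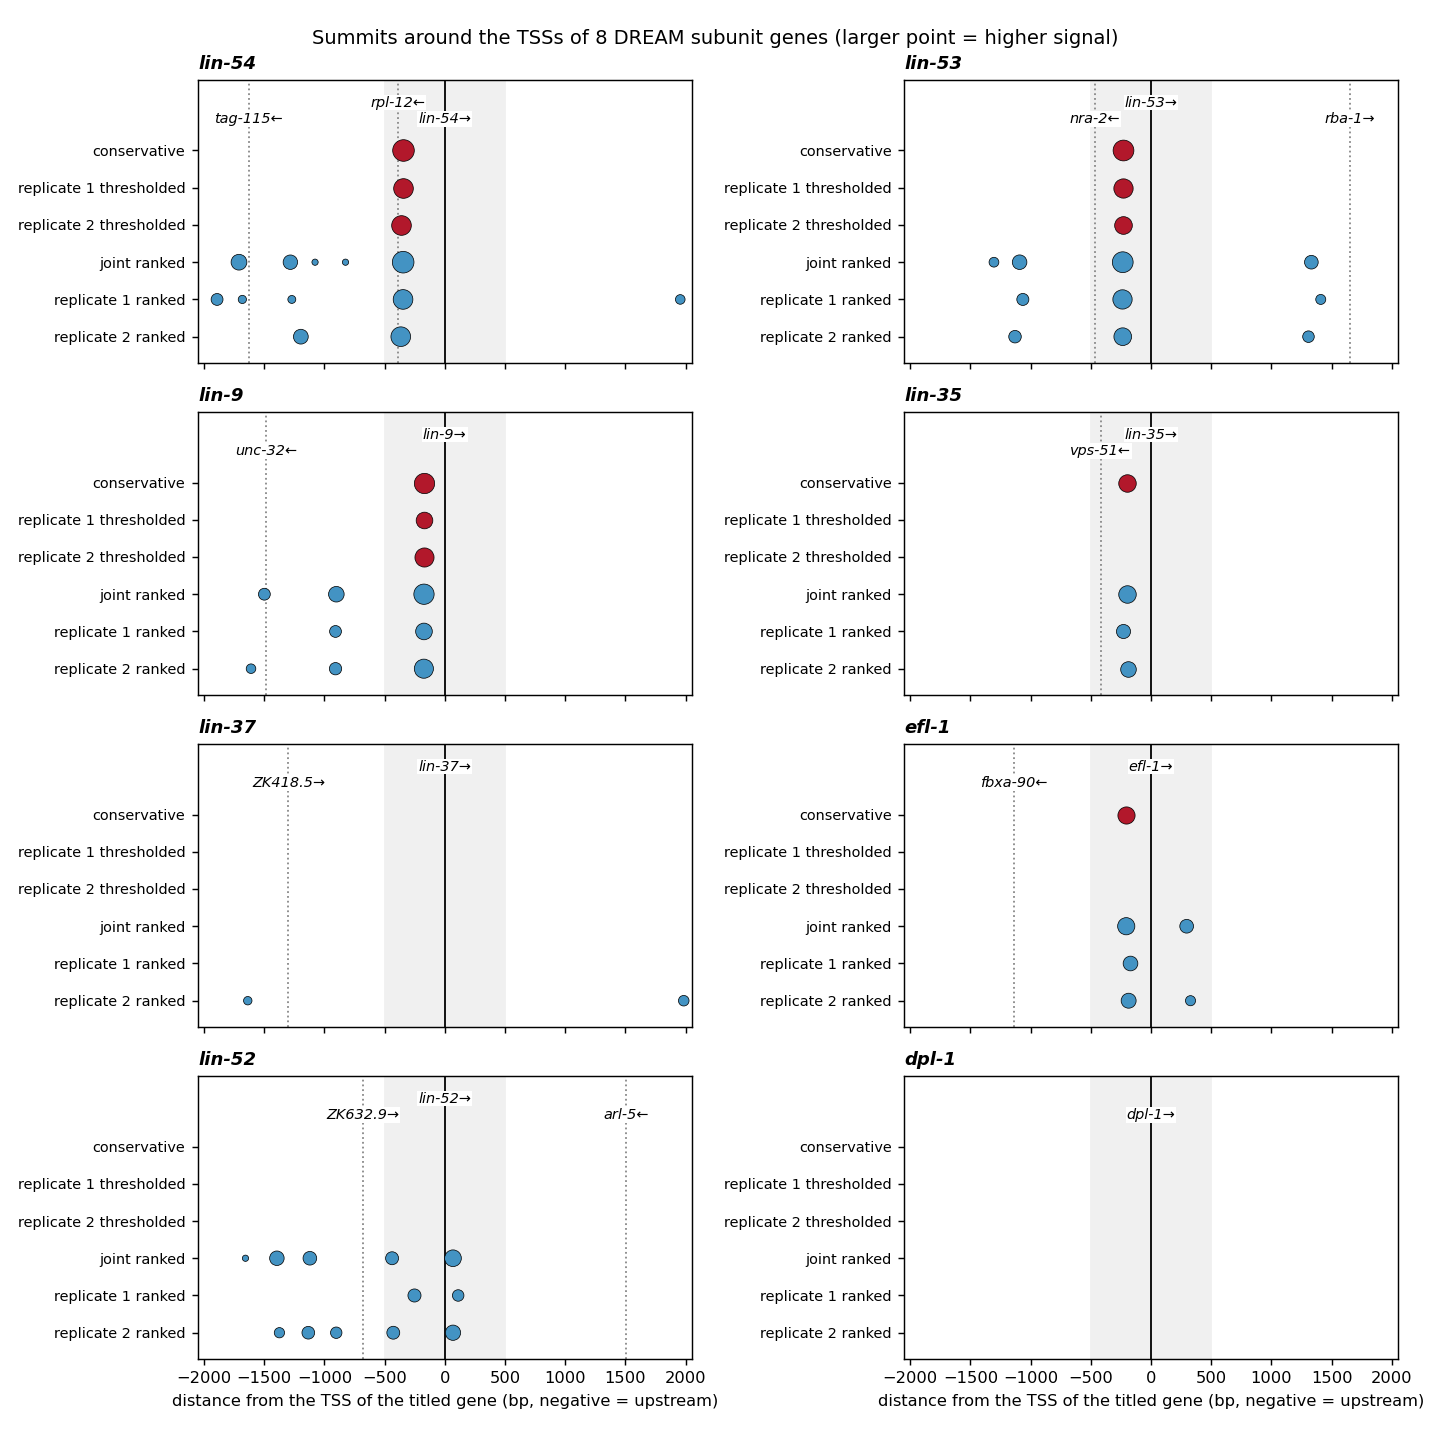
Summits within 2000 bp of the TSS of each of the 8 genes, by list. The optimal list and the other joint ranked list are not drawn, so the dpl-1 summit 1203 bp upstream does not appear. The horizontal axis is the distance in bp from the gene's own outermost TSS, with upstream negative. Grey shading marks 500 bp on either side, and dotted lines mark TSSs of neighbouring coding genes with arrows for their direction. Red points are summits of thresholded lists and blue points those of ranked lists, larger where the deposited signal is higher; the red points of 5 genes all lie upstream of the TSS, and lin-37 and dpl-1 have no point inside the shading.

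lin-54 (WBGene00003037, chromosome IV, 13241044 to 13243401, plus strand) had the strongest peak of the set. Its conservative peak (13240602 to 13240780) had a signal of 264 and ranked 83 of 1346. Signal is the value the authors' peak caller gave, and is used mainly to compare peaks within a list. Between the replicates' lists, whose scales are their own, it is compared only for the same peak, beside the ratios of the other peaks. In the ranked list of replicate 1 the signal was 136, at rank 73 of 31655, and in that of replicate 2 it was 136, at rank 94 of 28508. The replicates' summits lay 19 bp apart, and both were in the replicates' own thresholded lists.

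The lin-54 summit was 346 bp upstream of the lin-54 TSS and 47 bp upstream of that of rpl-12, a gene for a protein of the large ribosomal subunit, which is read in the other direction. The lists do not say which gene the peak belongs to. Within 250 bp it counts for rpl-12 only. The part of the peak outside annotated transcripts is printed here because it holds the summit, at its base 47; capitals mark words that are taken up below. It is the plus strand of chrIV:13240652-13240780 in WBcel235, the assembly that ce11 names, from RefSeq:
lin-54: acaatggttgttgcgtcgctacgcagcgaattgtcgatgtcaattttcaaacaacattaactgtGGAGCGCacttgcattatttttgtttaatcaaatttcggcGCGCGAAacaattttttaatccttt

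lin-9 (WBGene00002998, chromosome III, 8900237 to 8904131, minus strand), a MuvB core subunit, had a peak that reaches no other gene. The conservative peak (8904144 to 8904463) had a signal of 168 and ranked 194 of 1346. Its summit lay 173 bp upstream of the single lin-9 TSS, and the next coding gene, unc-32, started 1311 bp from the summit. In the ranked lists the signal was 55.9 in replicate 1, at rank 394, and 115 in replicate 2, at rank 131. The summits of the replicates were 1 bp apart. The 201 bases around the summit, which is base 101, are shown because this peak is the clearest case of a DREAM gene with a peak to itself (plus strand, chrIII:8904204-8904404):
lin-9: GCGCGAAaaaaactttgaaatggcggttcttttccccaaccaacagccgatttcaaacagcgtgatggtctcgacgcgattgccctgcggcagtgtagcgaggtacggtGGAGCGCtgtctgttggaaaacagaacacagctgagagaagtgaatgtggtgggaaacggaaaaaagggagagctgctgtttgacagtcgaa

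lin-53 encodes the RbAp48-like histone-binding subunit of the MuvB core, which other chromatin complexes share (WBGene00003036, chromosome I, 9618196 to 9619760, minus strand). Its conservative peak (9619954 to 9620055) had a signal of 198 and ranked 142 of 1346. In the ranked lists the signal was 122 in replicate 1, at rank 83, and 74.5 in replicate 2, at rank 293. The summit was 235 bp upstream of the lin-53 TSS and 232 bp upstream of that of nra-2, which is read in the opposite direction, so the distance favours neither gene. The peak was 102 bp wide and that of lin-54 179 bp; 204 of the 1346 conservative peaks were narrower than 320 bp and had a median signal of 224, against 81 for the 1129 of exactly that width. The paralog rba-1, which lies next to lin-53 on the same strand, had no thresholded summit within 500 bp. In the joint ranked list rba-1 had a summit of signal 26.8 at rank 16581.

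lin-52 and lin-37, the remaining MuvB core genes, had no thresholded peak within 2000 bp. lin-52 (WBGene00003035, chromosome III, 9824083 to 9824750, minus strand) had ranked summits only. Its strongest summit in the joint ranked list, 68 bp downstream of a TSS, had a signal of 56.7 at rank 1744 of 36238. The IDR score, which runs up to 1000 and is highest for the most repeatable peaks, was 159 for it there and 603 in the other joint ranked list, while no peak of the conservative list had less than 830. By replicate, its strongest summit had a signal of 23.5 in replicate 1, at rank 3990 and 252 bp upstream, and of 39.1 in replicate 2, at rank 1114 and 68 bp downstream. The replicates thus differed in which summit was the stronger. The nearest conservative summit was 19392 bp away, near riok-3, a kinase gene.

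lin-37 (WBGene00003022, chromosome III, 7070890 to 7072552, minus strand) had no ranked summit within 500 bp in any list. In replicate 2 the nearest was 1637 bp away, with a signal of 10.4 at rank 28383 of 28508, and in replicate 1 it was 4540 bp away, with a signal of 18.9. Its nearest conservative summit was 81475 bp away, near ogt-1. Both lin-37 and lin-52 follow a coding gene on the same strand closely, with 60 bp between lin-37 and ZK418.5 and 126 bp between lin-52 and ZK632.9. Neither of these upstream genes had a thresholded summit within 500 bp of its own TSS.

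lin-35 (WBGene00003020, chromosome I, 5807709 to 5815637, plus strand) encodes the only retinoblastoma-family protein of the worm. Its conservative peak (5807348 to 5807667) had a signal of 71.3, below the list median of 87.4, and ranked 976 of 1346. In the joint ranked list its IDR score was 988, and in the other joint ranked list it was 656. Signal was 29.6 in replicate 1, at rank 1828 of 31655, and 42.4 in replicate 2, at rank 932 of 28508, with summits 39 bp apart. The IDR scores in these ranked lists were 32 in replicate 1 and 636 in replicate 2. The conservative summit was 201 bp upstream of the lin-35 TSS and 217 bp upstream of that of vps-51, which is read the other way. The lin-35 peak thus lies between the start sites of a divergent pair, as those of lin-54 and lin-53 do.

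dpl-1 (WBGene00001061, chromosome II, 9169910 to 9172565, plus strand), the DP partner, had no thresholded summit within 2000 bp and no ranked summit within 500 bp. The nearest summit in the joint ranked list was 2797 bp from its TSS, with a signal of 25.8, against a median of 25.6 for that list. In the other joint ranked list a summit of signal 20.1 lay 1203 bp away. The nearest conservative summit was 41557 bp away, near jun-1. Of the heterodimer, the E2F gene but not the DP gene therefore had a conservative peak.

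efl-1 (WBGene00001161, chromosome V, 16958590 to 16965675, minus strand) encodes the E2F subunit. Its conservative peak (16965721 to 16966040) had a signal of 65.1, the lowest of the 5, and ranked 1116 of 1346. In the joint ranked list its IDR score was 1000, and in the other joint ranked list 464. Signal was 33.8 in replicate 1, at rank 1261, and 36.2 in replicate 2, at rank 1340, and the summits were 10 bp apart. Those 2 peaks had IDR scores of 656 and 31 in the replicates' own lists. The conservative summit was 206 bp upstream of the efl-1 TSS, and no other coding gene started within 500 bp; fbxa-90 started 933 bp away. The 201 bases around the summit, again base 101, are shown for comparison with lin-54 and lin-9 (plus strand, chrV:16965781-16965981):
efl-1: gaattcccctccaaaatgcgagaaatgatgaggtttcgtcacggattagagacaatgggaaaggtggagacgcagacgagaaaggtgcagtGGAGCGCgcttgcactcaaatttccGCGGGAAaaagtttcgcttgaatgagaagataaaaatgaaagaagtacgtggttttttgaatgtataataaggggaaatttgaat

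Words of E2F sites lay within 150 bp of 4 of the 5 member summits, but within 50 bp of only 1. GCGCGAA and GCGGGAA were searched on both strands in the 301 bp centred on each summit. GCGCGAA was found at lin-54 and lin-9, against 3.71% of all 1346 conservative summits and 1.92% of all 19973 promoters (250 bp before to 50 bp after the outermost TSS, 300 bp in all). The lin-9 promoter so defined held this word, and that of lin-54 did not. GCGGGAA was found at lin-53 and efl-1, against 5.79% of summits and 3.22% of promoters. Either word was present at 125 of the 1346 summits, 9.29%. Within 50 bp of the summit GCGCGAA was at none of the 5, against 1.56% of all summits, and GCGGGAA at efl-1 alone, against 1.71%. The first letter of GCGCGAA was 58 bp from the summit at lin-54 and 100 bp from it at lin-9. At lin-35 neither word was found, which says only that these letters are not in that window.

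The words of the CHR element were common in the 301 bp window and are given with their shares over all summits. TTTGAA was found at 4 of the 5 summits (lin-54, lin-9, lin-53 and efl-1), against 42.5% of all conservative summits and 62.5% of promoters, and at lin-54 its letters on the minus strand covered the summit base. Within 50 bp of the summit TTTGAA was at 3 of the 5 (lin-54, lin-9 and lin-53), against 13.7% of all summits. TTCGAA was at none of the 5, against 17.2% of summits and 18.2% of promoters. The GA repeat GAGAGA and the word ACGCAG, which are not words of the CHR element, were searched too. GAGAGA was found at lin-9 and lin-35, against 44.7% of all summits and 21.8% of promoters. ACGCAG was found at lin-54 and efl-1, against 26.1% of all summits and 8.23% of promoters. Among the members' own promoters, GAGAGA was in those of lin-9, lin-37 and dpl-1, and ACGCAG in that of efl-1. Within 50 bp GAGAGA was at lin-9 alone (24.4%), and ACGCAG again at lin-54 and efl-1 (15.5%).

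A further word was noticed only once the sequences stood side by side, and was chosen for being shared. GGAGCGC was on the plus strand near the summits of lin-54, lin-9 and efl-1, with its centre 21, 12 and 6 bp from them. In the 301 bp window it was found at 54 of the 1346 conservative summits (4.01%) and in 1.95% of promoters. The promoters of lin-9 and efl-1 held the word, and that of lin-54 did not. Within 50 bp of the summit it was found at 27 summits (2.01% of the 1346, both strands), these 3 included, and at neither lin-53 nor lin-35. The 21 bases around it are printed with the word in capitals (chrIV:13240712-13240732, chrIII:8904309-8904329 and chrV:16965868-16965888):
lin-54: ctgtGGAGCGCacttgcatta
lin-9: cggtGGAGCGCtgtctgttgg
efl-1: cagtGGAGCGCgcttgcactc
The lin-54 and efl-1 stretches were identical at 17 of the 21 bases, lin-54 and lin-9 at 12, and lin-9 and efl-1 at 11; since the word itself was the ground for lining them up, its 7 bases count in each.

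By signal in the conservative list, the 5 peaks fell into a stronger and a weaker set. lin-54, lin-53 and lin-9 ranked between 83 and 194 of 1346, with 3.02, 2.27 and 1.92 times the median signal of the list. lin-35 and efl-1 ranked 976 and 1116, with 0.816 and 0.745 times that median. In the thresholded list of replicate 1, lin-9 was only at the middle, at rank 375 of 748 and 1.0 times that list's median. In that of replicate 2 it was at rank 126 of 790, with 1.84 times the median there. Among the 653 genes with a conservative peak, ordered by their strongest one, lin-54 was at place 58, lin-53 at 103, lin-9 at 139, lin-35 at 559 and efl-1 at 611. Of all conservative peaks, 38.6% overlapped a peak in both replicates' own thresholded lists, as the first 3 did, and 32.5% a peak in neither, as lin-35 and efl-1 did.

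**Figure D2:**
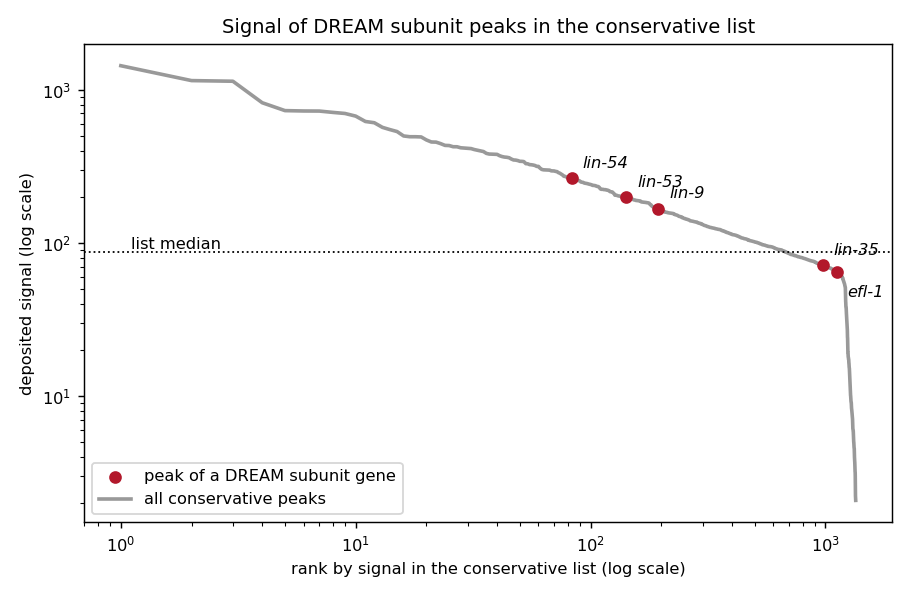
Deposited signal against rank for the 1346 peaks of the conservative list, both on log scales; red points are the peaks of the 5 DREAM subunit genes and the dotted line is the list median of 87.4. lin-54 (264), lin-53 (198) and lin-9 (168) lie above the median, and lin-35 (71.3) and efl-1 (65.1) below it.

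The replicates differed in how they ordered the stronger peaks. The ratio of the replicate 1 signal to the replicate 2 signal was 1 at lin-54, 1.64 at lin-53 and 0.487 at lin-9, against a median of 0.881 (quartiles 0.729 and 1.06) over 1331 conservative peaks that overlapped a ranked peak in both replicates. Only 29 of these peaks had a ratio as high as that of lin-53, itself included, and 28 one as low as that of lin-9. lin-53 therefore ranked above lin-9 in replicate 1 (83 and 394), while lin-9 ranked above lin-53 in replicate 2 (131 and 293). With 2 replicates the order of these genes below lin-54 is not settled. At lin-35 the ratio was 0.698 and at efl-1 0.932.

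**Figure D3:**
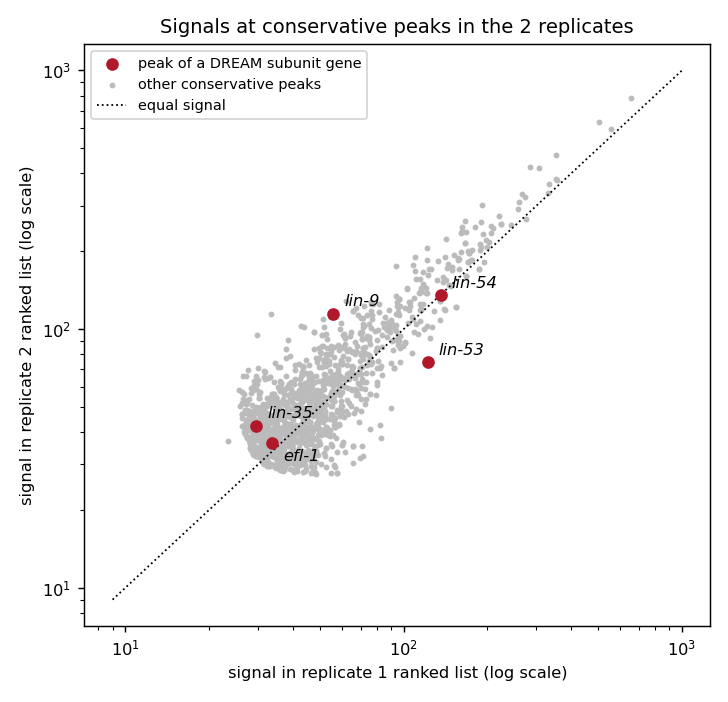
Signal of each conservative peak in the ranked list of replicate 1 (horizontal) and of replicate 2 (vertical), both on log scales, for the 1331 peaks with a partner in both; red points are DREAM subunit peaks, grey points the others and the dotted line marks equal signal. lin-54 lies on the line at 136 and 136, lin-53 below the line at 122 and 74.5, and lin-9 above it at 55.9 and 115.

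The 5 summits lay 173 to 346 bp upstream of the member's TSS. In the whole list, 473 of the 577 summits within 500 bp of a TSS were upstream of the nearest one, at a median of 186 bp (quartiles 111 and 291). Those distances are to the nearest TSS of any coding gene. Measured in that way the lin-54 summit lay 47 bp from the TSS of rpl-12, below the lower quartile. Measured to its own TSS it lay beyond the upper quartile. The other member summits lay between the quartiles by either measure.

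The share of genes with a peak was higher where genes start close together in opposite directions, and 3 members with a peak are arranged so. A single summit between such a pair can count for both genes, so these shares do not give the frequency of peaks. Of 3502 genes whose upstream neighbour is read the opposite way and lies within 1000 bp, 7.8% had a conservative peak. For genes with a tandem neighbour within that distance the share was 2.32%, and for those with a longer gap 2.3%. lin-54, lin-53 and lin-35 belong to the first kind, and all 3 had a peak. lin-52 and lin-37 are of the second kind, with none, and of the 3 members with a longer gap lin-9 and efl-1 had a peak and dpl-1 did not. Of all 653 genes with a peak, 39.2% shared it with another coding gene, as 3 of the 5 members did. How far this arrangement bears on the members' count was not tested.

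Other genes of the synMuv classes and chromatin partners of LIN-53 are set here beside the share of all protein-coding genes with a conservative peak, 3.27%. Among 16 other synMuv class B genes the count was 1 (6.25%, Wilson interval 1.11 to 28.3), at ubc-9, which encodes the SUMO-conjugating enzyme (signal 71.8). Class A had 1 of 4, at lin-56 (68.5, 414 bp downstream of the TSS). Class C, which encodes a Tip60-type acetyltransferase complex, had 1 of 4, at epc-1 (87.2). The ubc-9 and lin-56 peaks were in neither replicate's thresholded list, and the epc-1 peak was in that of replicate 2 only. Among 13 chromatin partners of LIN-53 the count was 1 (7.69%, 1.37 to 33.3), at hat-1, a histone acetyltransferase gene (189, rank 157, 235 bp upstream), whose peak was in both replicates' thresholded lists.

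Among genes of the cell cycle and the germline, conservative peaks were counted in the same way. Of 21 regulators of the G1 to S transition, cyclin D, cyclin E and their kinases among them, 0 had one, a count that allows a share of up to 15.5% (upper Wilson bound). The S-phase and mitosis list had 2 of 29 (6.9%, 1.91 to 22.0): pcn-1, which encodes the replication clamp PCNA (156), and top-2, a topoisomerase gene (113, a peak also in reach of npp-3). Among 31 germline genes the count was 2 (6.45%, 1.79 to 20.7), at ego-1, an RNA-directed RNA polymerase gene (157), and mrg-1, a chromodomain gene (140, also in reach of spcs-2). These 4 peaks were in both replicates' thresholded lists. Over all lists, some of which share genes, 8 of 114 distinct genes had a conservative peak, 7.02% (3.6 to 13.2), beside 3.27% of all genes. Within 250 bp the count was 3, beside 2.08% of all genes. The genes of these lists were chosen by name with earlier results known. The intervals therefore do not serve as a test against all genes, and no test was made.

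**Figure D4:**
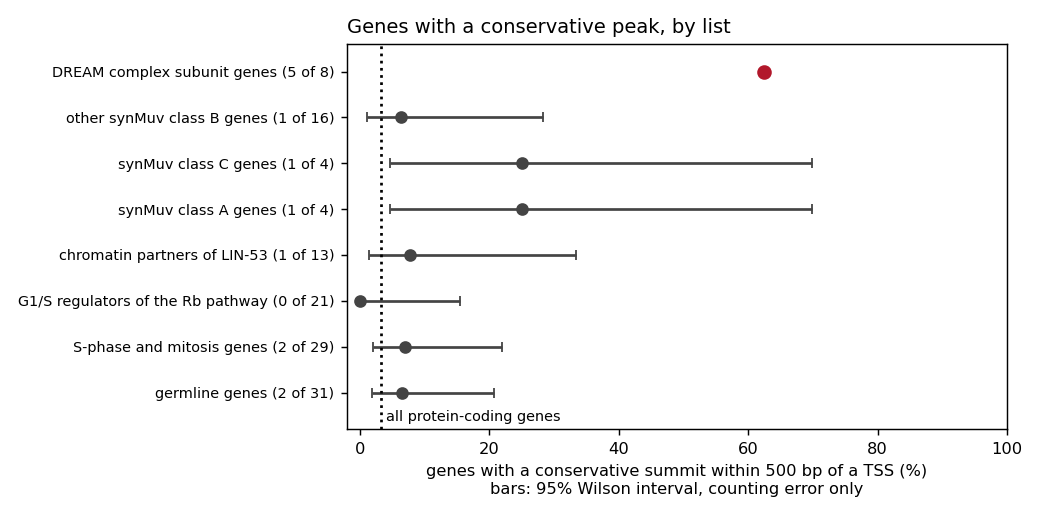
Percentage of genes with a conservative summit within 500 bp of a TSS in each list, with the DREAM subunit genes in red at the top. Bars are 95% Wilson intervals, which cover counting error only. None is drawn for the DREAM genes, which were chosen after the lin-54 peak had been seen. The other lists were also chosen with earlier results of these data known, so their bars do not serve as a test. The dotted line is the share of all protein-coding genes, 3.27%; the DREAM subunit genes stand at 62.5%, and the other lists at 0 to 25%, the highest being lists of 4 genes.

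The peaks next to that of lin-54 in signal are given for comparison. Next above it were a peak 1095 bp from the TSS of F55C5.17 (signal 266) and one 140 bp from that of ntl-11 (266). Next below were peaks near rps-24, a gene for a protein of the small ribosomal subunit (260), and set-25, a histone methyltransferase gene (258). When the 518 other conservative peaks found in both replicates' thresholded lists were compared by their signals in the replicates, the nearest was at ruvb-1 and tofu-1, with 135 in replicate 1 and 128 in replicate 2 (a distance of 0.0847 in log2 signal). The next nearest was an overlapping peak at the same start sites that is paired with the same replicate peaks.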

How the data were processed

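The 2 biological replicates of one ChIP-seq group gave the 8 peak lists deposited by the authors, whose text files name the build ce11. Each replicate had a ranked list and an IDR-thresholded list, from its own filtered alignments and a shared input. The joint lists used both replicates. Names and versions of aligner and peak caller were not given in the sources used here. Signal, as deposited, is the authors' value per peak, of unstated scaling. The authors' IDR score per peak is an integer with a maximum of 1000. The joint ranked list was identified from the files: 67.7% of its first member intervals were peaks of replicate 1, against 5.63% in the other. The 4 columns that hold single replicates' signals inside the joint ranked lists were not used. Read numbers, and so depth, are unknown; precision rests on numbers of peaks and genes.

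TSSs were 29304 sites of coding transcripts in Ensembl release 115 (WBcel235); peak and gene ends lay within the RefSeq chromosomes. Summits were matched to TSSs within 500 or 2000 bp with Python 3.11.15 and pandas 2.3.3, in code tested on simulated data. Shares have Wilson intervals (statsmodels 0.14.6). Where a member had several summits, the one of highest signal was used. No gene set or label test was run. Members, the 7 gene lists and the words were chosen with earlier results of these data known; GGAGCGC was added after the sequences were seen. Genes were named by rule: all members, genes in reach of their peaks or nearest their nearest summits, listed genes with a conservative peak, and the peaks next to lin-54 in signal. rba-1, ZK418.5, ZK632.9, efl-2 and efl-3 were named after their values were seen. The gene cdc-45 of the S-phase list was not matched in the annotation. Alternatives were other lists, windows, start sites and a signal cutoff.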

Additional observations from a re-analysis of the deposited data

How the results depend on the processing

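The count of members with a conservative summit within 500 bp was 5. It was 3 in the optimal list, 3 among peaks of at least the median signal, and 3 with either replicate left out; these were lin-54, lin-9 and lin-53 each time. With a window of 250 bp it was 4, since lin-54 dropped out. It was 5 at 1000 bp, with 1 TSS per gene, and by peak interval. Within 2000 bp the count was 5, but 3 in the optimal list, 3 among the stronger peaks and 3 with a replicate left out. Members with a ranked summit stayed between 6 and 7 in all settings. Listed genes with a conservative summit numbered 8, but 5 among the stronger peaks, 3 at 250 bp and 5 to 6 with a replicate left out. The share of all genes was 3.27%, but 1.99% for the stronger peaks, 3.0% with 1 TSS per gene, 3.67% by interval, 2.08% at 250 bp, 4.46% at 1000 bp, and 2.02% to 2.32% with a replicate left out. The optimal list of 1338 peaks reached more genes (666, against 653) but not lin-35 and efl-1; the cause was not tested. The lin-54 signal was 264 in both joint lists and 136 in each of the replicates' lists, whose scale is their own. No paired analysis was possible because there was a single group.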

Other observations

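Before the threshold, most genes of some lists around DREAM had a summit. In the joint ranked list, where 33.6% of all protein-coding genes had a summit within 500 bp, the share was 75% of the other synMuv class B genes (12 of 16) and 69% of the S-phase and mitosis genes (20 of 29). It was 53.8% of the chromatin partners of LIN-53 (7 of 13), 38.1% of the G1 to S regulators (8 of 21), 35.5% of the germline genes (11 of 31), 50% of class C (2 of 4) and 25% of class A (1 of 4). For the DREAM subunit genes it was 6 of 8. These summits did not pass the reproducibility threshold for most of these genes, and no test was made of the differences.

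E2F words were also found at 4 of the 8 listed genes with a conservative peak: GCGCGAA near ubc-9, pcn-1 and top-2, and GCGGGAA near hat-1, in the 301 bp around the summit, and of these only the word at top-2 was within 50 bp. The share over all conservative summits was 9.29%. The other E2F-family genes had no conservative summit within 500 bp. efl-2 had no ranked summit there either, and efl-3 had one in a single list, the second joint ranked list, with a signal of 40.1.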
